A study of Mus musculus with 18 samples.

Results

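Cytoplasmic RNA of myofibers from the tibialis anterior (TA) was compared with that from the extensor digitorum longus (EDL), which are neighbouring fast muscles of the mouse hindlimb. The comparison took the 3 TA cytoplasm arrays and the 3 EDL cytoplasm arrays by their labels, 6 of the 18 arrays of the series. The other arrays hold nuclear RNA of both muscles and both fractions of the soleus, a slow muscle, and are used below only where a result of TA against EDL turns on them. All RNA came from untreated female CD1 mice aged 3 months. Muscles were digested with collagenase, intact fibers were picked by hand, and each array holds a pool of 5 to 10 fibers whose nuclei had been spun down after lysis, so the supernatant is the cytoplasmic fraction. EDL array 1 came from mice 3 and 4, EDL array 2 from mice 5 and 6, and EDL array 3 from mice 7 and 8. TA array 1 came from mice 5 and 1, TA array 2 from mice 5 and 2, and TA array 3 from mouse 9. TA arrays 1 and 2 therefore share mouse 5 with each other and with EDL array 2, and a pool of a few fibers need not hold the fiber types of a whole muscle in their true proportions.

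A myofiber is a single multinucleated cell, and its contractile speed is set largely by which isoforms of myosin, troponin and calcium-handling proteins it makes. Slow fibers use the slow isoforms and rely on mitochondria and fatty acids, whereas fast fibers use the fast isoforms and rely more on glycolysis and on rapid calcium reuptake. TA and EDL of the mouse are both made mainly of fast fibers and lie side by side, so a comparison between them asks how far fast muscles of the same limb differ in the RNA of their cytoplasm.

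Each array measured 55681 different probes in a single colour, and values are log2 intensities after quantile normalization of the 6 arrays together. Spots without a positive and significant signal were treated as missing. Signal was found at 83.6 to 89.3% of spots, and 62.4 to 71.2% were well above background. The 6 myofiber markers (Acta1, Ckm, Mb, Tnnc2, Ttn and Neb) were well above background on every array. Their summed intensity was 87700 to 101000 in EDL and 65100 to 83600 in TA, so the groups did not overlap. Markers of other cell types were present as well. The summed intensity of 8 satellite cell markers was 1110 to 1240 in EDL and 865, 16500 and 7650 on TA arrays 1, 2 and 3, with most of the last 2 sums from Itga7 and Cdh15, and the defining marker Pax7 was not well above background on any EDL array and was so on 1 TA array. In such pools, fewer cells of a type and less RNA per cell cannot be told apart. The arrays also lay on different slides. TA array 1 shared a slide (slide 1) and a scan day with the 3 EDL arrays, TA array 2 lay on slide 3 and TA array 3 on slide 4, both scanned on another day. Muscle and slide can be told apart only through TA array 1, so its value is given beside those of the other 2 throughout.

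Of 46398 probes with a value on at least 2 of 3 arrays in both groups, 2 (0.00431%) differed between TA and EDL at an adjusted p under 0.05 by limma's moderated test with Benjamini-Hochberg adjustment. Pdgfc was higher in TA and 2310002L09Rik was lower. At an unadjusted p under 0.05 there were 7761 probes, and the median difference over all probes was 0.09 on the log2 scale. When TA array 1 was left out, the same test called 6049 of 44125 probes (13.7%), 3083 higher and 2966 lower in TA, whereas leaving out any other array left 0 or 1 probe called. Without TA array 1 no TA array shares a slide with EDL, so those calls do not separate muscle from slide. A fit that shared the spread of all 18 arrays, nuclei and soleus included, called 6014 probes. Nuclear arrays were known from earlier results to vary less between replicates than cytoplasm arrays. A spread shared with them would therefore understate that of cytoplasm. The 3 EDL arrays correlated with each other at Pearson's r of 0.966 to 0.968 over probes, TA array 1 correlated with them at 0.958 to 0.961, and TA arrays 2 and 3 correlated with each other at 0.968. TA array 1 correlated less with its own group, at 0.929 with TA array 2 and 0.913 with TA array 3. In this respect it went against its label, which was kept as given and cannot be checked independently here, and every value given for TA array 1 depends on it. Of the 2 probes named above, which were also called without TA array 1, 2310002L09Rik was low on TA array 1 too and Pdgfc had no value there.

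At 5986 of the probes called without TA array 1, the median difference from the EDL mean, in the direction of the call, was 1.52 for TA arrays 2 and 3 and 0.25 for TA array 1. The probes were chosen on the former, and both differences are taken from the same EDL arrays, so these values are a description. The median SD between replicates was 0.27 in EDL and 0.40 in TA.

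**Figure D1:**
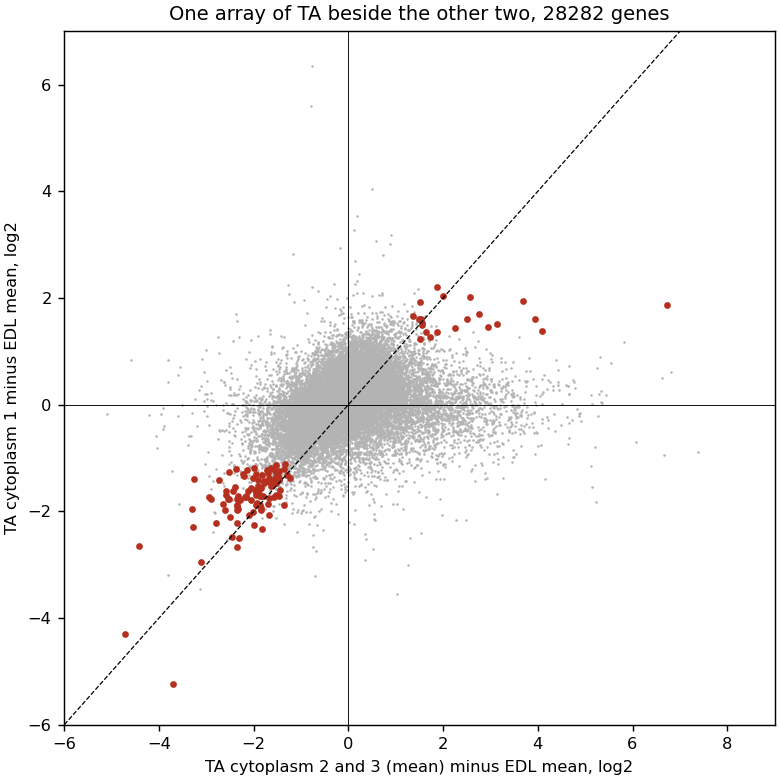
Each point is 1 of 28282 genes with a value on all 6 arrays, by its brightest probe. The x axis gives the mean of TA arrays 2 and 3 minus the EDL mean and the y axis TA array 1 minus the EDL mean, both in log2 and both from the same EDL arrays, and the dashed line marks equal differences. Red points are the 22 genes higher and 95 genes lower in TA whose nearest arrays of the 2 groups differed by at least 1. Most points far to the right lie near 0 on the y axis, whereas the red points on the left lie near the dashed line.

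Counted by gene, 3114 of 28282 genes (11%) were higher and 3201 (11.3%) were lower on every TA array than on every EDL array. A gap of at least 1 on the log2 scale between the nearest arrays, a 2-fold difference, was left by 22 genes (0.0778%) that were higher in TA and 95 genes (0.336%) that were lower. These 2 sets of shares are the background against which the gene groups below are read. Such a gap, lower in TA, was left by 3 of 15 slow contractile genes, 3 of 26 immediate early genes and 3 of 11 fibroblast markers. No other list had more than 1 such gene, and no list had a gene with such a gap that was higher in TA. The genes with the widest gaps were chosen for their separation, so their values are a description and not a test.

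Pdgfc, a growth factor that signals through platelet-derived growth factor receptors, was one of the called probes. Its probe lies at chr3:81017572-81017631 on the plus strand (mm9, as are all positions here). The 3 EDL arrays gave 3.06, 2.33 and 2.60, none well above background, TA array 1 gave no value, and TA arrays 2 and 3 gave 7.38 and 7.88. The fitted difference was 4.97 ± 0.35 (SE; limma adjusted p = 0.0456), and since EDL has only a bound, TA arrays 2 and 3 were at least 29.7-fold higher. The call rests on the TA arrays that lie on other slides than EDL, and the muscle and the slide cannot be told apart for it. TA nuclei also held the RNA, at a mean of 7.55 against 3.77 in EDL nuclei.

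2310002L09Rik, a gene known by its clone name, was the other. Its probe at chr4:73585427-73585486 on the minus strand gave 9.18, 9.34 and 9.03 in EDL and 5.40, 4.33 and 5.49 on TA arrays 1, 2 and 3. TA array 1 stood with the other TA arrays and not with the arrays of its own slide, and the groups were separated by a gap of 3.54. The difference was -4.11 ± 0.35 (SE; limma adjusted p = 0.0456), a 17.3-fold lower level in TA. In nuclei the means were 10.46 in EDL and 5.87 in TA, and on the scale of all 18 arrays the soleus cytoplasm was at 8.65. A second probe of the gene on the same strand gave a smaller difference of -1.04 ± 0.35 (adjusted p = 0.235), with 8.52, 8.46 and 8.78 in EDL and 8.25, 6.99 and 7.40 in TA.

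Long intergenic non-coding RNA (lincRNA) regions made up much of the array, and none was called. Of 13636 probes in such regions that were tested, 11.5% were higher and 5.86% were lower on every TA array, among those with 6 values, beside 10.9% and 11.2% of all probes. The shares were 11.3% and 3.61% for 1693 annotated lncRNA probes and 10.8% and 14.4% for 25716 probes of coding genes. Because the regions carry several probes each, regions could be followed along their length. The probes below were picked after their values were seen, from the 6 with the smallest unadjusted p in each direction. Every probe of their region had a difference of the same sign. Regions at chrX:45814752-45816313 (2 probes, higher) and chr8:27129927-27137444 (1 probe, lower) also met this and are not printed. All are 60 bases long and written 5′ to 3′ as the array lists them, the first 2 from regions higher in TA and the last 3 from regions lower in TA.

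chr6:83373714-83373773, minus strand: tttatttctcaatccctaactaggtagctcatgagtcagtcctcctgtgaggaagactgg

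chr9:24306893-24306952, minus strand: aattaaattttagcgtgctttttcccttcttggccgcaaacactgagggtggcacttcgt

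chr4:86272947-86273006, plus strand: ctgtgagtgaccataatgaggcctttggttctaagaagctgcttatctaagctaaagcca

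chr16:43624418-43624477, minus strand: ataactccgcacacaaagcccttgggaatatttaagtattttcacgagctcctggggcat

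chr7:66563076-66563135, minus strand: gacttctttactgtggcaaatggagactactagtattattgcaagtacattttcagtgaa

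The probe at chr4:86272947-86273006 had the smallest unadjusted p among the lincRNA probes lower in TA (0.000244 by limma; adjusted p = 0.124). It gave 7.13, 6.67 and 7.15 in EDL and 5.52, 5.37 and 5.30 in TA, a difference of -1.59 ± 0.26. Its region, chr4:86267450-86277650 on the plus strand, had 5 probes, all with differences below 0 and a median of -0.88, but only 2 of them without overlap. The region at chr16:43623581-43642715 on the minus strand had 10 tested probes. All 10 were lower on every TA array, with a median difference of -1.18 and a range from -2.12 to -0.83. The printed probe gave 9.33, 8.84 and 9.29 in EDL and 7.73, 7.15 and 7.77 in TA, a difference of -1.60 ± 0.29 (SE; limma adjusted p = 0.150). The nearest probe of a coding gene, 0.8 kb away on the other strand, was one of Zbtb20, a zinc finger repressor. The brightest probe of Zbtb20 differed by -0.02 (adjusted p = 0.982). A region at chr7:66562376-66579519 on the minus strand had 5 probes, all lower and without overlap, with a median of -1.30. Its printed probe gave 7.28, 7.29 and 7.62 in EDL and 5.98, 5.68 and 6.17 in TA (-1.45 ± 0.26; adjusted p = 0.150). The region lies 1 kb from a probe of Ube3a, an imprinted ubiquitin ligase gene, whose brightest probe differed by -1.13 (adjusted p = 0.201). Such distances are to the nearest array probe of a gene, so they do not tell whether a region lies within the gene.

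The region at chr1:134867906-134885481 on the plus strand lies 0.9 kb from a probe of the p53 regulator Mdm4. All 9 of its probes were lower in TA on average and 7 did not overlap, with a median of -1.10. The brightest probe of Mdm4 differed by 0.39 (adjusted p = 0.539). In the other direction, the region at chr6:83368261-83407280 on the minus strand had 4 probes, all higher in TA with a median of 0.93, and its printed probe gave 4.69, 4.49 and 5.01 in EDL and 5.74, 6.10 and 6.35 in TA (1.34 ± 0.28; adjusted p = 0.180). Both probes of the region at chr9:24292762-24307562 on the minus strand were higher without overlap, and the printed one gave 5.00, 4.62 and 4.92 in EDL and 5.77, 6.06 and 6.18 in TA (1.15 ± 0.26; adjusted p = 0.186). At all the printed probes TA array 1 sat on the same side of EDL as the other TA arrays, which their choice by the smallest p favours. Probes of a region may read the same transcript, so their number is not a number of independent measurements.

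Myl2, the slow regulatory myosin light chain, had the largest difference among genes lower on every TA array. EDL gave 11.99, 11.78 and 10.18 and TA gave 7.01, 6.54 and 6.67, a difference of -4.58 ± 0.47 (SE; limma adjusted p = 0.0861). The TA arrays lay close together whereas EDL array 3 was lower than the other EDL arrays, and the nearest arrays of the groups were still 3.17 apart. On the scale of all 18 arrays, soleus cytoplasm was at 14.86, and nuclei gave 12.18 in EDL and 6.36 in TA.

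Other slow isoforms went the same way, but not all. Of 17 slow contractile genes tested none was called, 5 of 15 with 6 values (33.3%, against 11.3% of all genes) were lower on every TA array and none was higher on every TA array, and the median difference was -1.01. The TA arrays one by one had medians of -1.11, -0.88 and -0.85 relative to the EDL mean. Myl3, the slow essential light chain, gave 10.97, 10.52 and 9.62 in EDL and 8.41, 8.07 and 8.02 in TA (-2.21 ± 0.37; adjusted p = 0.134). Tpm3, the slow tropomyosin, gave 10.98, 10.51 and 10.76 in EDL and 9.41, 8.57 and 8.51 in TA (-1.92 ± 0.32; adjusted p = 0.134). Actn2 and Myh7b were the other members without overlap, with differences of -1.01 and -0.85.

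In other genes of the slow list TA array 1 stood apart from TA arrays 2 and 3. Tnnt1, slow troponin T, gave 11.44, 10.91 and 10.59 in EDL, 7.44 on TA array 1 and 12.71 and 11.32 on TA arrays 2 and 3. Tnni1, slow troponin I, gave 8.15, 7.25 and 6.61 in EDL, 6.40 on TA array 1 and 11.71 and 9.11 on the others. Myl6b, an alkali light chain of slow fibers, gave 4.04, 4.51 and 4.91 in EDL, 2.95 on TA array 1 and 10.62 and 8.64 on the others. In all 3 genes TA array 1 was below every EDL array while TA array 2 was above every EDL array, and the means of the groups do not describe either. Myl6b, however, was well above background on only 1 EDL array and 2 TA arrays. Tnnc1, slow troponin C, overlapped, with 9.86, 9.53 and 9.38 in EDL and 9.37, 10.23 and 8.95 in TA. Sln, which encodes the calcium pump inhibitor sarcolipin, was lowest on TA arrays 2 and 3, with 9.07, 8.76 and 5.80 in EDL, 8.71 on TA array 1 and 3.59 and 2.96 on the others. Its signal was well above background on only 1 TA array.

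**Figure D2:**
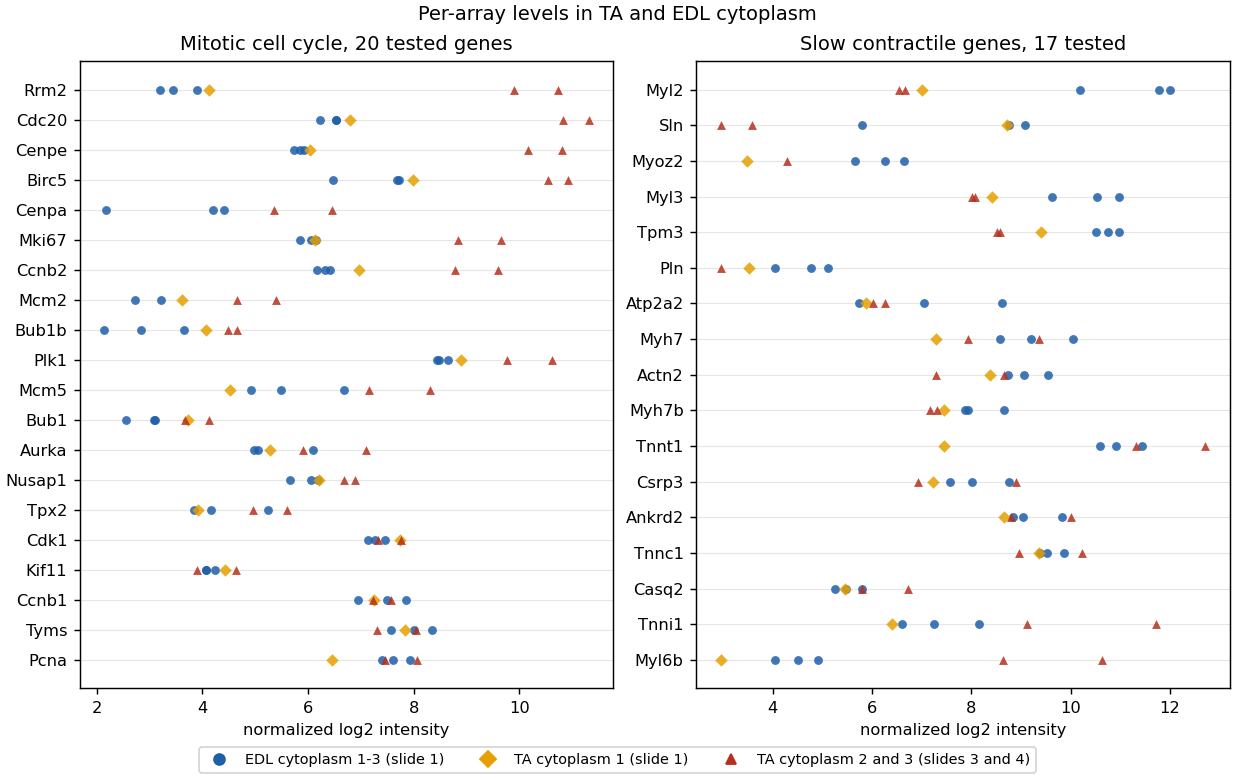
Normalized log2 intensity on each array for the 20 tested mitotic cell cycle genes (left) and the 17 tested slow contractile genes (right). Circles are the EDL arrays, the diamond is TA array 1, which shares the EDL slide, and triangles are TA arrays 2 and 3. Myl2, Myl3 and Tpm3 are lower on all 3 TA arrays, whereas Cdc20, Cenpe and Rrm2 are high on the triangles and near EDL on the diamond.

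No gene of the fast list was higher on every TA array. None of 20 was called, and none left a gap of at least 1. Lower on every TA array were 12 of 20 (60%, against 11.3% of all genes), some by gaps as narrow as 0.01 (Tnnc2) and 0.05 (Tnni2). The median difference was -0.77, with -0.23 on TA array 1 and -1.16 and -0.89 on TA arrays 2 and 3. Differences ran from -1.69 to 0.23. Myh2, the myosin heavy chain of fast oxidative fibers, gave 12.54, 12.43 and 11.83 in EDL and 10.48, 9.98 and 11.27 in TA (-1.69 ± 0.38; limma adjusted p = 0.186). Myh4, the heavy chain of the fastest fibers, gave 13.76, 13.61 and 13.86 in EDL and 13.75, 13.37 and 13.32 in TA, a difference of -0.26 ± 0.25. Mybpc1, the slow myosin-binding protein C, stood in this list although fast fibers share it with slow ones, and differed by -1.19 ± 0.29. Without it 11 of 19 (57.9%) were lower on every TA array and the median was -0.67. Atp2a1, the fast calcium pump, differed by -1.12 ± 0.38. On TA array 1 Atp2a1 was at 14.28, close to the EDL values of 14.43 to 14.65, and at 13.04 and 12.93 on the others. Pvalb, the calcium buffer of fast fibers, gave 16.13, 16.00 and 16.06 in EDL and 15.84, 15.41 and 15.12 in TA.

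Calcium release, uptake and buffering genes had medians by array close to those of the fast list, but the lists are not separate sets of genes. The extremes of the calcium list, -2.79 and 0.48, are the values of Sln and Casq2 of the slow list. Calcium genes such as Atp2a1 and Pvalb also stood in the fast list. Of 26 tested, none was called and 7 of 25 (28%) were lower on every TA array, with a median of -0.64. The median on TA array 1 was -0.21, and it was -0.97 and -0.94 on the other TA arrays. Cacnb1, a subunit of the voltage sensor, gave 10.32, 10.13 and 10.17 in EDL, 9.94 on TA array 1 and 8.73 and 8.08 on the others (-1.29 ± 0.45; adjusted p = 0.238). Without TA array 1, 10 members were called, all lower, beside 2330 called higher and 1953 called lower among all 30661 genes. With that array left out, muscle and slide cannot be told apart in these calls. The myofiber markers named above also had a median difference of -0.54, with -0.13, -0.74 and -0.53 on TA arrays 1, 2 and 3, and how far that shift enters the contractile and calcium lists was not tested.

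Immediate early genes, which cells switch on within minutes of a stimulus, were lower in TA for most members, on all 3 TA arrays alike. Of 28 tested none was called, but 17 of 26 (65.4%) were lower on every TA array and none was higher on every TA array. The median difference was -1.19, and TA array 1, at -1.01, was close to TA arrays 2 and 3 at -1.26 and -1.22. Fos gave 9.60, 8.97 and 9.62 in EDL and 7.43 and 6.58 on TA arrays 1 and 2, with TA array 3 lower still (TA mean 6.54 ± 0.92, SD, n = 3). Its difference was -2.86 ± 0.46 (limma adjusted p = 0.124). Dusp1, a phosphatase that turns off MAP kinases, gave 9.20, 9.22 and 9.65 in EDL and 7.35, 7.33 and 7.33 in TA (-2.02 ± 0.25; adjusted p = 0.102). The TA values were almost equal and none came near EDL. Egr1 differed by -2.25 ± 0.45, Btg2 by -2.95 ± 0.56 and Socs3 by -1.80 ± 0.36, each without overlap. Atf3 averaged 10.20 ± 1.12 in EDL and 8.21 ± 0.59 in TA (SD, n = 3), also without overlap. Fosl2 was lower at the probe with the widest gap (-1.95 ± 0.25) but not at its brightest probe (-0.33 ± 0.27). Klf6, Btg1, Ier5, Fosl1 and Nr4a2 had differences above 0, and none of them was called. Ptgs2, the inducible cyclooxygenase, was outside the list and gave 5.71, 4.61 and 4.80 in EDL and 2.81, 2.72 and 2.65 in TA. These TA values lay near the dimmest signals that count as well above background, 2.16, 2.38 and 2.65 on TA arrays 1, 2 and 3.

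Chaperones and hormone-responsive genes were also often lower. Among 25 heat shock and chaperone genes, 11 (44%) were lower on every TA array, with a median of -0.53 and -0.52, -0.59 and -0.61 on TA arrays 1, 2 and 3. Hspa1a, the inducible Hsp70, gave 9.13, 8.08 and 11.61 in EDL and 7.57, 6.99 and 6.58 in TA (-2.56 ± 0.79; adjusted p = 0.218), so the spread within EDL was wider than the gap. Hsp90ab1, the constitutive Hsp90, went against the list on TA arrays 2 and 3, at 14.68 and 14.58 against 10.77 on TA array 1 and 10.88 to 11.24 in EDL. In the list of glucocorticoid and metal response genes, 5 of 15 (33.3%) were lower on every TA array and Angptl4 was higher on every one. Klf15, a glucocorticoid-induced regulator of amino acid breakdown, gave 6.77, 5.90 and 6.81 in EDL and 4.62, 3.89 and 3.82 in TA (-2.38 ± 0.36; adjusted p = 0.115). Of 15 clock genes with 6 values, Nr1d1, Nr1d2 and Nfil3 were lower on every TA array by -1.60, -1.18 and -1.64, and Cry2 was higher on every one by 0.52.

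**Figure D3:**
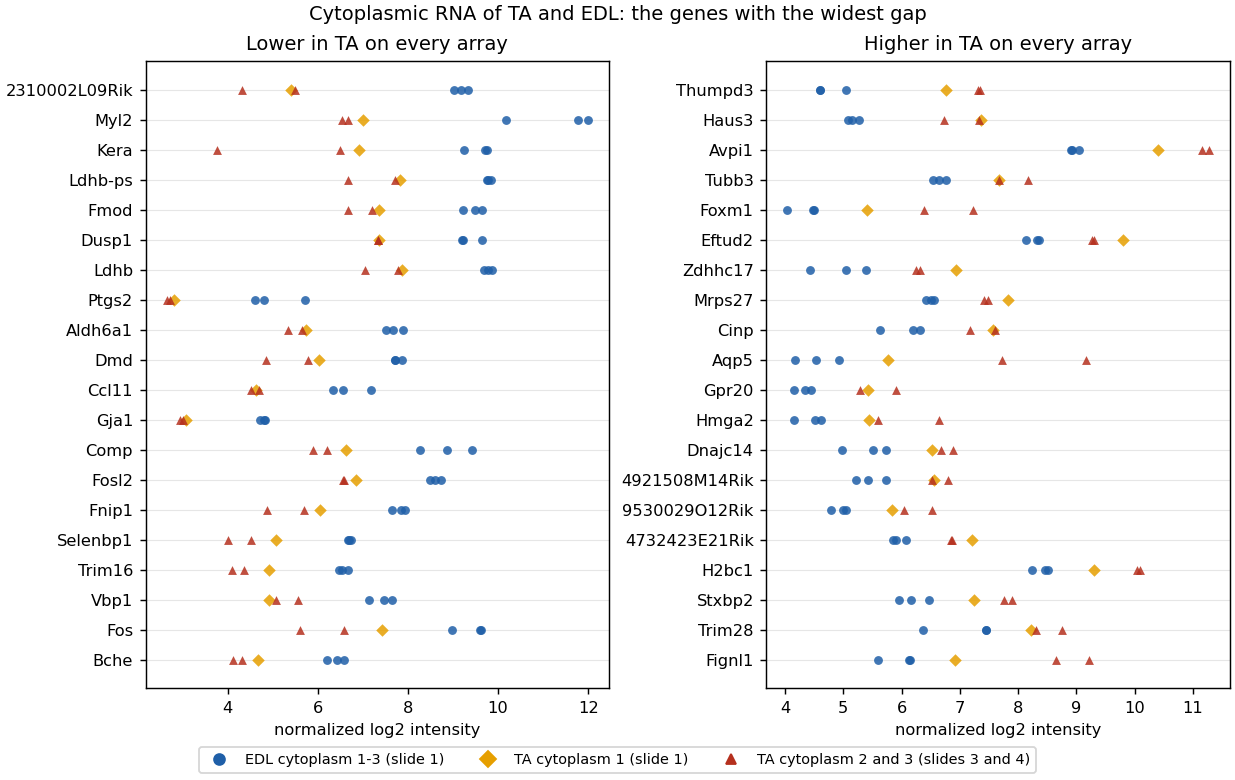
Normalized log2 intensity on each array for the 20 genes lower and the 20 genes higher in TA with the widest gap between the nearest arrays of the groups, ordered by that gap. Circles are the EDL arrays, diamonds TA array 1 and triangles TA arrays 2 and 3, and in every row the EDL arrays lie to 1 side of all TA arrays. The rows were chosen for this separation.

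Fmod, Comp and Kera, which encode proteins of the extracellular matrix, were among the 20 genes with the widest gaps below EDL. Fmod, which encodes the collagen-binding proteoglycan fibromodulin, gave 9.64, 9.22 and 9.49 in EDL and 7.36, 7.21 and 6.68 in TA (-2.37 ± 0.28; limma adjusted p = 0.0864). Comp, cartilage oligomeric matrix protein, gave 8.86, 8.27 and 9.43 in EDL and 6.63, 6.21 and 5.90 in TA (-2.61 ± 0.36; adjusted p = 0.113). Kera, keratocan, gave 9.76, 9.24 and 9.70 in EDL and 6.92, 6.50 and 3.77 in TA (-3.84 ± 0.73; adjusted p = 0.165). In all 3 genes TA array 1 was nearer the other TA arrays than EDL, but the choice by the gap required it to lie apart from EDL. The chemokine gene Ccl11 gave 6.56, 6.34 and 7.19 in EDL and 4.63, 4.69 and 4.53 in TA, and Gja1, the gap junction gene connexin 43, gave 4.84, 4.80 and 4.72 in EDL and 3.08, 3.01 and 2.95 in TA.

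Fibroblast markers pointed the same way for most members. Of 11 tested none was called, 8 (72.7%) were lower on every TA array, and the median was -0.97, with -0.97, -1.11 and -1.17 on TA arrays 1, 2 and 3. Col1a1, a chain of type I collagen, gave 12.50, 12.32 and 12.73 in EDL and 10.97, 10.50 and 9.75 in TA (-2.11 ± 0.35; adjusted p = 0.128). Pdgfra, the receptor that defines fibro-adipogenic cells, differed by -1.84 ± 0.29 and Dpt by -1.68 ± 0.30. The partner chain Col1a2 did not share this, at 13.44, 13.40 and 13.78 in EDL and 12.57, 14.16 and 13.90 in TA, and was below EDL only on TA array 1. Summed over the 11 markers, intensity was 25700 to 33600 in EDL and 17100, 28900 and 22100 on TA arrays 1, 2 and 3, so the sums overlapped. Over 36 tested collagen genes the median was -0.03, with 4 of 33 (12.1%) higher and 5 (15.2%) lower on every TA array. The part of connective tissue cells in these values was not tested.

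Genes of oxidative metabolism tended to be lower in TA, as were the 6 myofiber markers, with a median of -0.54. How far that shift enters the values below was not tested. Of 91 nuclear-encoded respiratory chain genes none was called, 41 of 89 (46.1%) were lower on every TA array and none was higher on every one, with a median of -0.47 and -0.22, -0.73 and -0.59 on the 3 arrays. Ndufa6, a complex I subunit, gave 11.78, 11.18 and 11.53 in EDL and 9.75, 9.66 and 10.68 in TA (-1.46 ± 0.35; adjusted p = 0.200), and Sdha, of complex II, differed by -1.23 ± 0.30. Cox6a1, a complex IV isoform found outside muscle as well, went to 14.26 and 13.94 on TA arrays 2 and 3 from 9.32 to 9.63 in EDL, while TA array 1 stayed at 8.72. The 7 mitochondrially encoded RNAs on the array had a median difference of 0.04.

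Ldhb, the lactate dehydrogenase subunit of oxidative tissue, gave 9.77, 9.86 and 9.69 in EDL and 7.87, 7.05 and 7.78 in TA (-2.21 ± 0.30; limma adjusted p = 0.113). Its probe shares a run of at least 30 bases with that of the pseudogene Ldhb-ps, which gave nearly the same values, so the 2 probes cannot be told apart. Soleus cytoplasm was at 11.95 for Ldhb on the scale of all 18 arrays. Among 23 fatty acid uptake and oxidation genes 8 of 22 (36.4%) were lower on every TA array, with a median of -0.22, among them Acadl, a medium- to long-chain dehydrogenase, at -1.87 ± 0.35, Acsl1 at -1.18 ± 0.36 and Lpl at -1.14 ± 0.32. Several abundant glycolytic enzymes hardly differed, with Aldoa at -0.08, Gapdh at -0.12, Ldha at 0.11 and Pkm at 0.05, none beyond its SE of 0.24 to 0.28. Pfkfb3, which makes the activator of phosphofructokinase, was the member with the largest difference, at 10.04, 9.24 and 9.28 in EDL and 7.97, 6.89 and 8.41 in TA (-1.77 ± 0.43; adjusted p = 0.201). Of 19 glycolytic genes with 6 values, 5 (26.3%) were lower and Ldha was higher on every TA array.

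Regulators of fiber type and atrophy had mixed differences. Ppargc1a, the coactivator of mitochondrial genes, gave 9.23, 9.22 and 9.77 in EDL and 8.54, 7.60 and 8.17 in TA (-1.30 ± 0.32; adjusted p = 0.201). Of 24 myogenic and fiber type regulators with 6 values, 7 (29.2%) were lower and 2 (8.33%) higher on every TA array. Fbxo32, the atrophy ubiquitin ligase atrogin-1, gave 8.27, 7.89 and 7.63 in EDL and 7.03, 6.24 and 6.88 in TA (-1.21 ± 0.31; adjusted p = 0.202). Trim63, the atrophy ligase MuRF1, was at 8.54, 9.30 and 10.04 in EDL, at 8.54 on TA array 1, level with the lowest EDL array, and at 6.02 and 5.78 on TA arrays 2 and 3. Of the limb position genes, which encode patterning factors such as the Hox proteins, Hoxa11 gave 6.32, 6.73 and 6.82 in EDL and 5.19, 5.17 and 5.48 in TA (-1.34 ± 0.26; adjusted p = 0.172) and Tbx3 differed by -0.93 ± 0.32. These were the only 2 of 20 with 6 values (10%) that were lower on every TA array, and none was higher on every one.

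Genes higher in TA on every array were fewer at wide gaps, and no pathway list led them. Thumpd3, an RNA methyltransferase gene, gave 4.59, 4.60 and 5.05 in EDL and 6.77, 7.31 and 7.34 in TA (2.39 ± 0.29; limma adjusted p = 0.0864). Haus3, of the augmin complex that branches microtubules, gave 5.27, 5.08 and 5.14 in EDL and 7.37, 6.73 and 7.33 in TA (1.98 ± 0.27; adjusted p = 0.113). Avpi1, named for its induction by vasopressin, gave 8.91, 8.93 and 9.04 in EDL and 10.40, 11.27 and 11.15 in TA (1.98 ± 0.30; adjusted p = 0.115). TA array 1 was the highest of the 6 arrays for Haus3 and lay between EDL and the others for Avpi1 and Thumpd3. Eftud2, a spliceosomal GTPase, gave 8.32, 8.36 and 8.13 in EDL and 9.80, 9.27 and 9.31 in TA, and Tubb3, a neuronal beta-tubulin, gave 6.54, 6.77 and 6.64 in EDL and 7.68, 8.17 and 7.67 in TA. Mrps27, of the mitochondrial ribosome, gave 6.56, 6.42 and 6.50 in EDL and 7.82, 7.42 and 7.49 in TA.

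Some of these genes rested on a single probe among several. Stxbp2 differed by 1.43 ± 0.29 at one probe and 0.26 ± 0.35 at another, Polg by 1.61 ± 0.33 and -0.27 ± 0.28, Cinp by 1.40 ± 0.29 and -0.46 ± 0.30, and Aqp5 by 3.01 ± 0.74 and 0.50 ± 0.28. Among the genes lower in TA, Vbp1 differed by -2.23 ± 0.29 and -0.28 ± 0.24. Dmd, the dystrophin gene, differed by -2.23 ± 0.34 at the probe with the widest gap, by -0.71 ± 0.40 and -0.38 ± 0.32 at others, and by 0.50 ± 0.47 at a probe not above background. Probes of the same gene can read different transcript ends, and which of them reads the main transcript was not tested.

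Mitotic genes, which mark dividing cells and are silent in mature fibers, were higher on TA arrays 2 and 3 than on TA array 1 for many members. Of 20 tested none was called, 9 of 18 (50%, against 11% of all genes) were higher on every TA array and none was lower on every one, with a median of 1.09. Yet the median was 0.31 on TA array 1 against 1.34 and 1.93 on TA arrays 2 and 3. Cdc20, an activator of the anaphase-promoting complex, gave 6.53, 6.22 and 6.53 in EDL, 6.79 on TA array 1 and 10.83 and 11.32 on the others (3.22 ± 1.03; limma adjusted p = 0.223). Rrm2, a subunit of ribonucleotide reductase, was not well above background in EDL, at 3.45, 3.90 and 3.20, and was at 4.12, 9.90 and 10.74 in TA. Cenpe, a kinetochore motor, gave 5.84, 5.93 and 5.74 in EDL, 6.04 on TA array 1 and 10.17 and 10.81 on the others. Cdk1, Ccnb1, Tyms, Pcna and Kif11 had differences between -0.32 and 0.33 and overlapped with EDL, so the list did not move as a whole. TA nuclei, all on slide 3, were also high, with Cdc20 between 10.32 and 10.91 and Rrm2 between 9.25 and 10.01 on the scale of all 18 arrays.

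Genes of other lists also stood apart on TA arrays 2 and 3. Myh3, the embryonic myosin heavy chain, gave 5.84, 3.96 and 4.34 in EDL, 4.00 on TA array 1 and 12.12 and 9.43 on the others. Chrna1, the alpha subunit of the acetylcholine receptor, gave 6.44, 6.18 and 5.87 in EDL, 6.34 on TA array 1 and 12.15 and 11.05 on the others. Of 7 satellite cell markers with 6 values, 3 (42.9%), Cd34, Sdc4 and Chodl, were lower on every TA array and none was higher on every one. Cdh15 and Itga7 of the same list reached 12.29 and 13.40 on TA array 2 but 6.43 and 6.76 on TA array 1, within or below the EDL range, while Pax7 gave 3.37 ± 0.04 on EDL arrays 2 and 3 (SD, n = 2), 3.86 on TA array 1 and 5.58 and 4.84 on the others. Of 81 cytosolic ribosomal protein genes 3 (3.70%) were higher and 20 (24.7%) lower on every TA array. Their median was -0.17 on TA array 1 and 0.45 and 0.69 on TA arrays 2 and 3, and Fau, for example, gave 12.85 to 13.25 in EDL, 13.02 on TA array 1 and 15.13 and 15.23 on the others. Of 39 replication-dependent histone genes 13 (33.3%) were higher on every TA array and none lower. Their probes of the H2A class were mostly close together in level, as H2ac11 at 9.76 to 10.47 in EDL, 10.62 on TA array 1 and 14.41 and 14.53 on the others. Near-identical histone genes can share hybridizing RNA, so their number overstates the separate measurements.

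**Figure D4:**
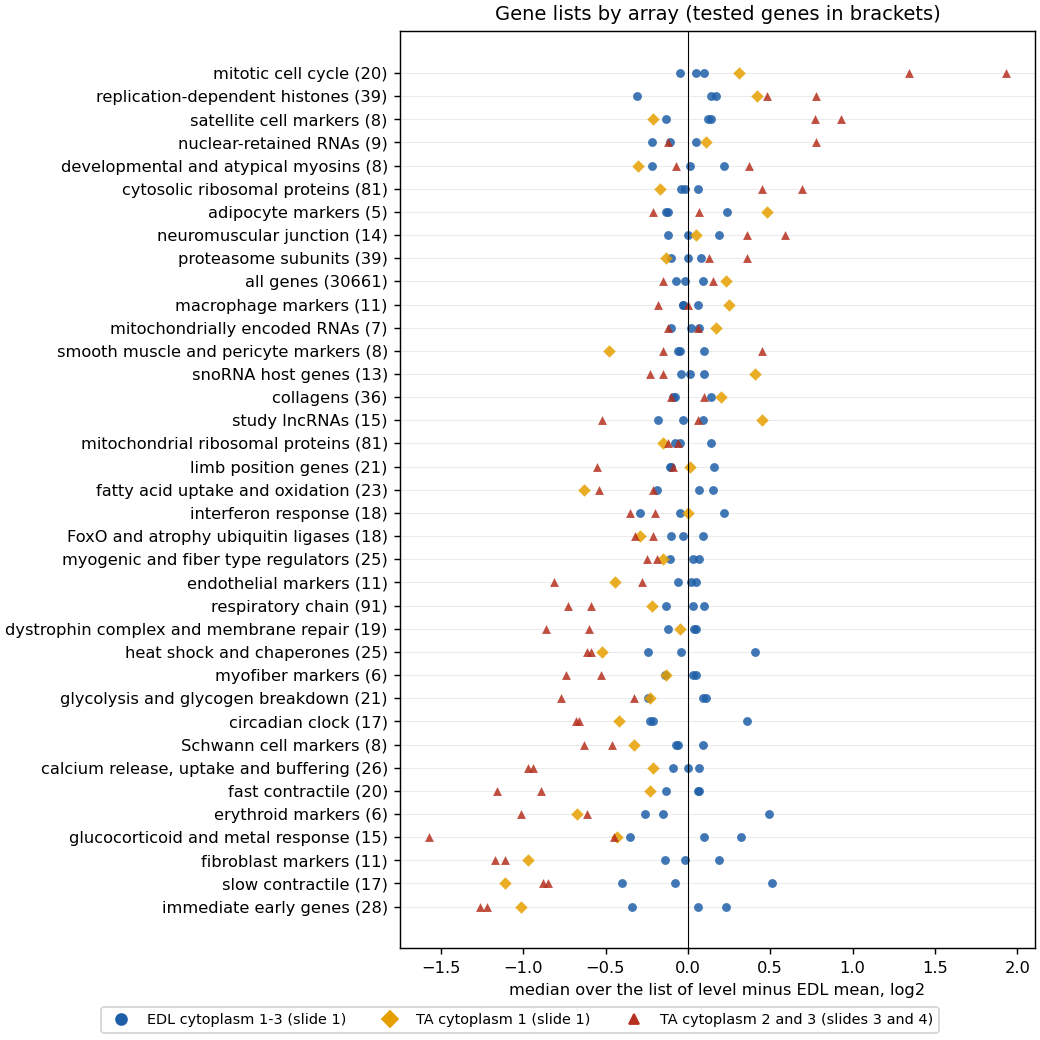
Median over each gene list of the level on an array minus the EDL mean, in log2, with 1 point per array and the number of tested genes in brackets, for lists with at least 5 genes measured on all 6 arrays. Circles are the EDL arrays, diamonds TA array 1 and triangles TA arrays 2 and 3. Immediate early genes, slow contractile genes and fibroblast markers sit between -1.26 and -0.85 on all 3 TA arrays, whereas for mitotic genes the diamond is at 0.31 and the triangles at 1.34 and 1.93.

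Over all genes, a gap of at least 1 between TA arrays 2 and 3 and the other 4 arrays was left by 1400 genes that were higher (4.95%) and 439 that were lower (1.55%) on TA arrays 2 and 3. This grouping was chosen after the correlations had shown these 2 arrays apart, so the counts restate that and test nothing. Raly, an RNA-binding protein gene, gave 4.87, 4.95 and 4.32 in EDL, 3.82 on TA array 1 and 12.23 and 11.97 on TA arrays 2 and 3, and Zyx, the focal adhesion gene zyxin, gave 7.04 to 7.71 in EDL, 7.07 on TA array 1 and 12.61 and 12.49 on the others. Sap30, of a histone deacetylase complex, went the other way, with 8.64 to 9.45 in EDL, 8.74 on TA array 1 and 4.74 and 2.91 on the others. Myf6, a myogenic factor of mature fibers, gave 8.39 to 8.74 in EDL, 8.01 on TA array 1 and 5.11 and 5.37 on the others. In TA nuclei on slide 3 Raly was between 11.68 and 12.28. These genes were picked for standing apart on TA arrays 2 and 3, and whether TA array 1 differs from the other TA arrays through its slide, its scan day, its fibers or its label cannot be told apart.

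Some genes were well above background in 1 muscle only. This held for 261 probes on all 3 TA arrays and no EDL array, and for 141 probes in the other direction. For such genes the difference is a bound, taken against the dimmest signal that counts as well above background or the measured value where that was higher. Nefl, a neurofilament subunit, was at least 33.6-fold higher in TA, but TA array 1 was at 4.97 and the others at 9.87 and 9.78. Mymx, the fusion peptide of myoblasts, was at least 8.22-fold higher, at 5.62, 8.15 and 6.57 in TA (limma adjusted p = 0.194). In the other direction no TA array was well above background by the choice of probes, so TA values that lie close together there follow from that choice. Lox, lysyl oxidase, which crosslinks collagen, gave 7.08, 6.34 and 7.15 in EDL and 3.80, 3.58 and 4.21 in TA and was at least 7.94-fold lower (adjusted p = 0.0861). Cish, a suppressor of cytokine signalling, gave 6.58, 6.17 and 5.58 in EDL and 3.16, 2.78 and 3.21 in TA and was at least 8.34-fold lower (adjusted p = 0.0861). Ecrg4 was at least 9.72-fold and Slc9a7 at least 8.38-fold lower. Smok2a, at 12.01, 4.44 and 4.54 in EDL, owed its bound to EDL array 1.

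Nuclear RNA of the same muscles was extracted and hybridized separately, though TA nuclei lie on slide 3 and EDL nuclei on slide 2. On the scale of all 18 arrays, Myl2 differed by -5.83 in nuclei, Fmod by -4.03 and Comp by -4.07, each further from 0 than in cytoplasm. Dusp1 and Ccl11 differed by -0.57 and -0.51 in nuclei, closer to 0 than in cytoplasm (-2.02 and -2.08 on the scale of the 6 arrays). Zdhhc17 was higher in TA cytoplasm, at 6.94, 6.24 and 6.32 against 5.05, 4.43 and 5.38, but in nuclei TA was at 6.88 and EDL at 7.05. Other probes of Zdhhc17 differed by -0.15 ± 0.26 and 0.76 ± 0.37 in cytoplasm. A test of whether the TA minus EDL difference depended on the fraction called 39 of 41538 probes (0.0939%), 26 with a higher difference in cytoplasm and 13 with a lower one. With the replicate number as a block, which joins cytoplasm and nuclei of the same EDL mice, 9 of these were called. TA nuclei 1, 2 and 3 came from mice 1, 2 and 3. In TA the block therefore joins fractions that share a mouse at numbers 1 and 2 but not at number 3. It also joins EDL with TA arrays of the same number. None of the 40 genes with the widest gaps passed the fraction test without the block. Dusp1 (adjusted p = 0.0521), Fmod (adjusted p = 0.0548) and Ccl11 (adjusted p = 0.0583) came closest to the threshold.

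**Figure D5:**
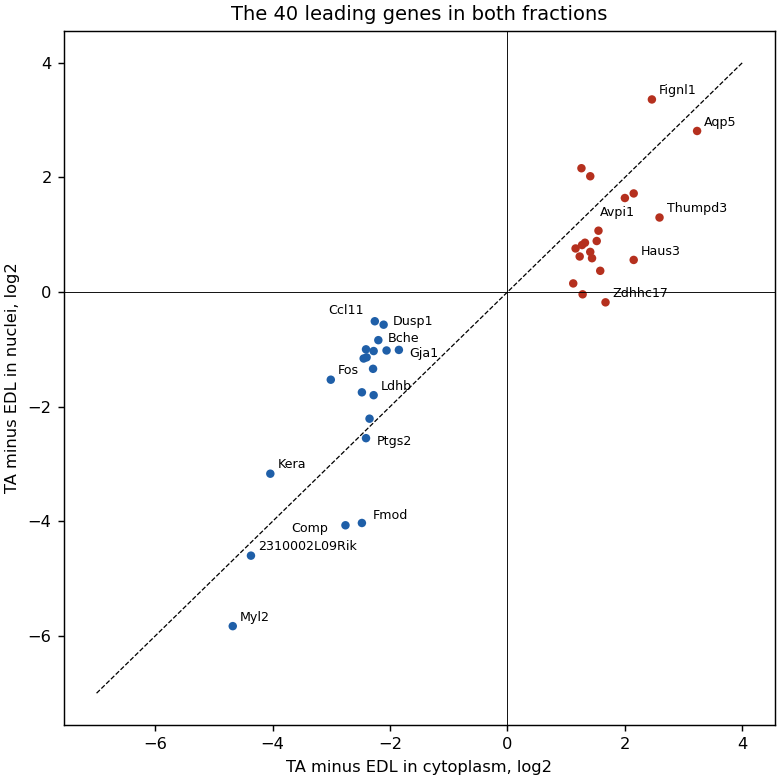
TA minus EDL in cytoplasm (x axis) and in nuclei (y axis), both in log2 on the scale of all 18 arrays, for the 40 genes with the widest gaps in cytoplasm. Blue genes were lower and red genes higher in TA cytoplasm, and the dashed line marks equal differences. Myl2, Comp and Fmod lie below the line, and Dusp1 and Ccl11 above it.

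A list of long non-coding RNAs joined RNAs named by the study with Malat1 and Meg3, and its members went in both directions. None of 15 was called, 2 (13.3%) were lower on every TA array and none was higher on every one, and differences ran from -1.13 to 1.60 with a median of -0.07. Pvt1, transcribed beside Myc, gave 7.24, 7.47 and 7.68 in EDL and 8.22, 7.72 and 7.23 in TA, a difference of 0.26 ± 0.32 (limma adjusted p = 0.712). H19, from the imprinted Igf2 locus, differed by 0.01 ± 0.43, Gas5 by -0.08 ± 0.33 and Meg3 by 0.40 ± 0.39, with overlapping arrays in each. Neat1, the scaffold RNA of paraspeckles, gave 9.65, 9.80 and 10.33 in EDL and 8.84, 8.41 and 9.14 in TA (-1.13 ± 0.31; adjusted p = 0.206). Malat1 gave 5.58, 6.00 and 6.75 in EDL, 6.17 on TA array 1 and 8.47 and 8.48 on the others.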

How the data were processed

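The deposited scanner files hold 1-colour intensity values that the authors obtained with Agilent Feature Extraction (version 10.7.3.1, per the file headers), already background-subtracted. Following the study's methods, control spots were left out, spots without the positive-and-significant flag were set to missing, the log2 processed signals of the 6 arrays were quantile-normalized together, and spots of the same probe were averaged. Spots with an outlier flag were also set to missing, which the study's methods do not state. A probe was tested with values on at least 2 of 3 arrays per group. Tests were 2-sided, with limma 3.58.1 (lmFit and eBayes, prior df 4.29) in R 4.3.3 and Benjamini-Hochberg adjustment over all probes at 0.05. The study instead used a permutation t-test for slow against fast fibers and Statistical Analysis of Microarray for subcellular location. The fit had 2 group means and no replicate block. A second fit over TA and EDL in both fractions, with array weights per fraction, tested whether the difference depended on the fraction. Both were also run on simulated arrays, the second without its array weights. The simulated arrays held the spread of the EDL arrays, with no slide effect and no array set apart as TA array 1 is. They therefore do not check the calls under such conditions.

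Groups and mice came from the labels, and slide and scan day from the file headers. Probes were named through RefSeq by accession (26425), symbol (3988) or synonym (826), and 24442 kept the array's name, lincRNA regions included. Positions are those of the array (mm9), and exons and UTRs were not analysed here. A gene stands for its brightest tested probe in the 37 gene lists. Names in the text follow these rules: list members with the largest difference or highest level, probes called, otherwise the 6 with the smallest unadjusted p per direction, and the 5 largest bounds per direction. The 20 genes per direction with the widest gap, the 12 per direction with the widest gap between TA arrays 2 and 3 and the other 4 arrays and further list members were chosen after their values were seen. Members and lists were chosen with earlier results of these data known. The number of arrays limits precision, and with shared mice and pools of few fibers the p-values measure only the spread between these pools. Alternatives covered scaling, background, filters, variance model, arrays fitted, slide, shared mouse, pairing, an ordinary t-test, the authors' deposited values and leaving out each array.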

Additional observations from a re-analysis of the deposited data

Results flagged for a closer look

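The difference between TA and EDL depended on the fraction at 39 probes (0.0939% of those tested) by a limma test of the difference between the fractions. The difference was further from 0 in nuclei at 32 of them and in cytoplasm at 7. With the replicate number as a block, 9 of the 39 were called, and of the genes named here these were Cilp2, Myh6, Matn3 and Fam43a. The block joins cytoplasm and nuclei of the same EDL mice but, at number 3, of different TA mice. Cilp2, a cartilage intermediate layer protein gene, differed by -3.86 in nuclei and -0.26 in cytoplasm, so the cytoplasmic difference was higher by 3.58 ± 0.28 (SE; adjusted p = 0.00295). Myh6, the alpha myosin heavy chain, differed by -3.17 in nuclei and -0.98 in cytoplasm, apart by 2.18 (adjusted p = 0.0141). Sema3b, a secreted guidance protein gene, was apart by 1.78 (adjusted p = 0.0265), Matn3, a matrilin of cartilage matrix, by 3.27 (adjusted p = 0.0285) and Pla2g5, a secreted phospholipase gene, by 2.05 (adjusted p = 0.0368), each lower in TA nuclei than in EDL nuclei, and with the block the adjusted p was 0.0633 for Sema3b, for Pla2g5 and for Tdrd5. Tdrd5 went the other way, higher in TA nuclei by 1.23 and lower in TA cytoplasm by -0.73, apart by -1.95 (adjusted p = 0.0297). Among the 7 further from 0 in cytoplasm, Fam43a differed by -2.24 in cytoplasm and -0.08 in nuclei, Mef2a, a muscle transcription factor gene, by -2.49 and -0.74, Poglut3 by -2.03 and -0.35, and Ptger4, a prostaglandin receptor gene, by 2.88 and 0.16, each with signal well above background on no array of 1 muscle's cytoplasm. EDL nuclei lie on slide 2 and TA nuclei on slide 3, so muscle and slide cannot be told apart in the nuclear part of these differences.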

How the results depend on the processing

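The 2 probes called in TA against EDL cytoplasm, Pdgfc and 2310002L09Rik, were also the 2 called with scaling to the 75th percentile or no scaling. Only 2310002L09Rik (1 probe) was called with normexp background correction or with signal well above background on 2 of 3 arrays in both groups, and a different probe (1) with TA array 1 alone against EDL within slide 1 (4930451I11Rik, 9.41 higher in log2 there but 5.15 with an adjusted p of 0.28 over the 3 TA arrays). Limma called no probe with values required on all 3 arrays (7429 at an unadjusted p under 0.05) or without the flag filter (8642). It also called none with slide (5532) or mouse 5 (7839) as a random block, or among the 3668 probes of the authors' deposited values (554). An ordinary pooled-variance t-test called 0 with Benjamini-Hochberg or Bonferroni adjustment (5866 at an unadjusted p under 0.05). The study's own t-test, for slow against fast fibers, took its p-values from permutations. More were called with an intensity trend and robust moderation (116), with the 9 cytoplasm arrays (10) and with all 18 arrays (6014). The 18-array fit shares its spread with the nuclear arrays, a limit given above. Leaving out each array in turn gave 0 to 6049, the highest without TA array 1, and that set shared 3774 probes with the 18-array fit. With array weights 16698 were called, but the estimate of the weights stopped before it converged and gave TA array 2 a weight of 8.20 against 0.26 for TA array 1 and 0.368 for TA array 3, so this count rests largely on TA array 2.

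The 39 probes whose difference depended on the fraction became 140 with 75th percentile scaling, 122 without scaling, 82 with the filter on signal well above background, 131 without array weights and 0 with nuclei averaged to 1 sample per muscle (850 at an unadjusted p under 0.05). Leaving out each array gave 1 (without EDL array 1) to 671 (without TA array 1).

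With the replicate number as a block, 2 probes were called in TA against EDL, 2310002L09Rik and Myl2 but not Pdgfc (adjusted p = 0.0759), and 9 of the 39 for the fraction. Between the muscles only the arrays numbered 2 share a mouse (mouse 5), and same-numbered cytoplasm arrays correlated at -0.03, 0.02 and 0.04 in their deviations, so they were not treated as pairs there. For the fraction, cytoplasm and nuclei of EDL with the same number came from the same mice, whereas those of TA shared no mouse at number 3.

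Of the named probes, 13 turned direction, all of them chosen for standing apart on TA arrays 2 and 3 and all within slide 1, where TA array 1 minus EDL was -0.89 for Raly, -0.94 for Scd2, -0.22 for Zyx, -1.14 for Chd3, -0.31 for Traf7, -0.08 for Anxa5, -0.35 for Arhgdia, 0.43 for Sdr42e1, 0.44 for Naif1, 0.06 for Pramel26, 0.11 for Sox12, 0.21 for Clstn3 and 0.71 for A630026N12Rik. Calls added up over the gene lists, with a gene counted in each list that holds it, were 256 with all 18 arrays and 260 without TA array 1. They were 487 with array weights, and none in the main comparison. Among all 30661 genes, 4107 were called with all 18 arrays, and 2330 higher and 1953 lower without TA array 1. The former share their spread with the nuclear arrays, and in the latter muscle and slide cannot be told apart. The causes of these changes were not tested.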

Other observations

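Several gene groups outside the comparisons above differed in how closely the 3 TA arrays stood together. Schwann cell markers were lower on every TA array in 4 of 7 genes with 6 values (57.1%), with a summed intensity of 1170 to 1260 in EDL and 735, 787 and 728 on TA arrays 1, 2 and 3, so that array 1 stood with the others. The erythroid markers, which include the globins, summed to 20000 to 31700 in EDL and 13300 to 16300 in TA. Smooth muscle and pericyte markers summed to 2930 to 3540 in EDL, 3170 on TA array 1 and 16900 and 11600 on TA arrays 2 and 3, mostly through Acta2, whereas 4 of the 8 had differences above 0 and 4 below, with a median of 0.04. Macrophage markers overlapped between the muscles, at 4500 to 5610 in EDL and 3880 to 6980 in TA.

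At the neuromuscular junction, Rapsn, which anchors acetylcholine receptors, gave 9.19, 9.43 and 9.64 in EDL and 9.93, 12.39 and 11.83 in TA, and Ache, acetylcholinesterase, gave 8.58, 8.08 and 8.75 in EDL and 7.73, 6.09 and 6.71 in TA, and neither was called (adjusted p = 0.214 and 0.204, limma). Among the dystrophin complex and membrane repair genes 5 of 19 (26.3%) were lower on every TA array, such as Dysf, a membrane repair gene, at 9.06, 8.83 and 8.99 in EDL and 8.37, 7.55 and 7.95 in TA.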
